A study of Mus musculus with 20 samples.

Results

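Wild-type serotonin (5-HT) neurons of the mouse hindbrain were compared between the stages E15.5 and E11.5, where E stands for embryonic day. The comparison took 6 of the 20 samples of the series, chosen by stage, genotype and amplification kit, with 3 libraries of E15.5 and 3 of E11.5, and 22542 of the 22556 genes of the deposited stage matrix. Genes whose estimate failed in one of the authors' own stage tests, 14 in all, were left out. The E15.5 group and the E11.5 group were both wild type, both from C57BL/6 mice, and both consisted of EYFP-positive neurons purified by flow cytometry. EYFP is a yellow fluorescent protein. The labels name an ePet-EYFP transgene, driven by an enhancer of Pet-1, for the embryos used for chromatin, so a sort of this kind depends on a reporter of Pet-1-expressing cells. RNA of both groups was amplified with the Clontech SMARTer kit, per the labels' protocols, although the E15.5 columns of the matrix name no kit. A further 3 libraries of E15.5 wild type, amplified with the NuGEN Ovation kit, were not part of the stage matrix and are used below only through the authors' own table. Libraries are called a, b and c in the order of the columns, which carry no replicate number, and values are always given in that order. Separate animals or litters are not stated for the libraries of a stage, so every p-value below measures the spread between libraries, which may be technical. The spread was estimated over 9 wild-type libraries, 3 of them of the later PN group, and a fit on the 6 libraries alone called 2774 genes in place of 3394.

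Serotonin neurons make serotonin from tryptophan through a hydroxylase and a decarboxylase, load it into vesicles with a monoamine transporter and take it back up through a plasma membrane transporter. In the mouse hindbrain they are born around the earlier of these stages, under factors such as Nkx2-2, Gata2, Lmx1b and the ETS factor Pet-1 (gene Fev), and in the days that follow they extend axons along the neuraxis, acquire receptors and begin to form synapses. The interval therefore spans the passage from newborn, already serotonergic neurons to neurons with growing axons.

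Expression was deposited as FPKM (fragments scaled to transcript length and to the mapped fragments of the library), without read numbers, so depth is unknown and no counting error can be given. Summed FPKM were 630091 to 850175 in the E15.5 libraries and 749747 to 919994 in the E11.5 libraries, and 10055 to 10587 genes at E15.5 and 9607 to 10204 at E11.5 reached 1 FPKM. Over the 6 libraries the first principal component of log2(FPKM + 1) took 60.4% of the variance and separated the stages. The second took 17.7% and set E11.5 a apart, at 62.9 against -29.99 and -46.8 for E11.5 b and c. The sorted cells carried the defining genes of serotonin neurons in every library. Tph2, the brain tryptophan hydroxylase, had 64.9, 51 and 76.3 FPKM at E15.5 and 145, 114 and 305 FPKM at E11.5, and Fev had 55.9, 34.6 and 15 FPKM at E15.5 and 393, 226 and 180.4 FPKM at E11.5.

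Between the stages 3394 of 11741 tested genes changed, which is 28.9%. Of these, 2046 were higher at E15.5 (17.4% of the tested genes) and 1348 were lower (11.48%). Changes were tested with limma on log2(FPKM + 1), and a call needed a difference of 1.5-fold or more with p under 0.05 after adjustment by Benjamini and Hochberg. A log2 change below is the difference of mean log2(FPKM + 1), E15.5 minus E11.5, a scale that understates the change of genes with low FPKM. Called rises of at least 4-fold numbered 530 and called falls 323, and past 16-fold there were 42 and 30. Libraries of the stages did not overlap for 42.3% of the tested genes, and for 3292 of the genes called. The median log2 change of all tested genes was 0.11. With each library scaled to the same upper quartile it was -0.02 and the split was 1659 higher and 1688 lower, so the excess of rises over falls depends on the scaling. Without E15.5 c, 876 genes were called lower. In the authors' deposited stage table, 4330 of 11616 genes (37.3%) passed a q-value of 0.05 and 1.5-fold. Of the 149 called genes given with values here, 122 passed in that table too and 27 did not, namely Aldh1l1, Anxa1, Anxa2, Cacng3, Calb2, Cbln4, Ccnb1, Cdh10, Cdh6, Cdk1, Chrna3, Cmtm7, Gabra5, Gpx8, Htr3a, Kcnd2, Lrrtm3, Mapk12, Nfib, Pcp4, Pdyn, Pla2g7, Slc16a3, Sstr1, Sstr2, Synpr and Th. In the lists below, shares near 17.4% higher or 11.48% lower are those of all tested genes and are no result about a list, and counts of 1 or 2 rest on single genes.

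**Figure D1:**
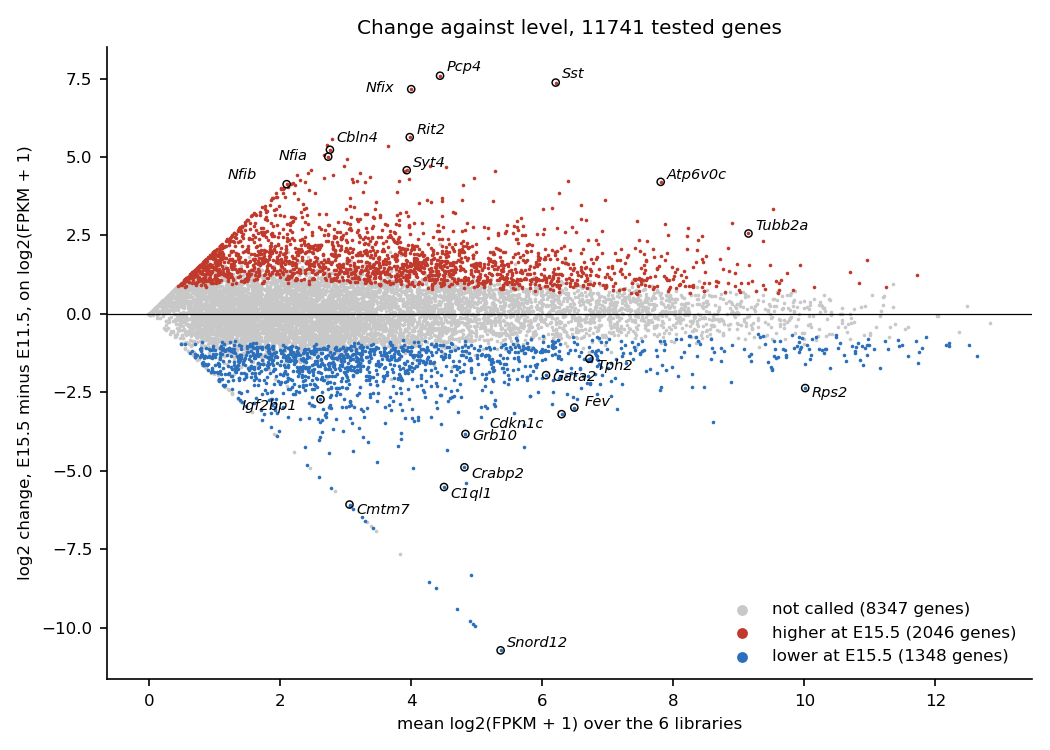
Difference between stages against level for the 11741 tested genes. The horizontal axis is the mean of log2(FPKM + 1) over the 6 libraries, the vertical axis the difference of means, E15.5 minus E11.5, on the same scale, and circles mark the labelled genes. Rises in red reach 7.59 for Pcp4, and the falls at the lower left edge, such as Snord12, are rows listed at 0 in the E15.5 libraries.

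In bulk RNA of this kind fewer cells of a type and less RNA per cell cannot be told apart, which touches every result below. Of 15 tested genes for serotonin synthesis and transport 8 fell and 0 rose with limma, with a median log2 change of -0.97. Of the others 0 were higher at an unadjusted p below 0.05, and 0 were called higher in the authors' deposited stage table. Without E15.5 c the falls numbered 5. The low-affinity organic cation transporter Slc22a3, which can also carry serotonin, had 1.18, 0.984 and 1.4 FPKM at E15.5, against 22, 14.6 and 19.2 FPKM at E11.5. All 3 E15.5 libraries lay below 2 FPKM and all E11.5 libraries above 14 FPKM (limma adjusted p = 7.14e-05, log2 change -3.15 with SE 0.34). The serotonin transporter Slc6a4 had 27.8, 26.3 and 23.4 FPKM at E15.5, against 65.2, 68.2 and 161 FPKM at E11.5. Here E11.5 c stood well above a and b of its stage, but the stages did not overlap (log2 change -1.76, limma adjusted p = 0.00304). The same library was highest for Tph2 (log2 change -1.43, limma adjusted p = 0.0141), whose call was lost without E15.5 b (limma adjusted p = 0.0556) and without the filter on low values (limma adjusted p = 0.0505). Ddc, the decarboxylase of the second step, had 170.3, 173 and 148 FPKM at E15.5, against 281, 269 and 348 FPKM at E11.5, a log2 change of -0.86 that was called with all libraries (limma adjusted p = 0.0191) but not without E11.5 c (limma adjusted p = 0.061) or E15.5 c (limma adjusted p = 0.0557). Enzymes of the cofactor tetrahydrobiopterin fell too. Pcbd1, which recycles it, had 52.8, 43.3 and 49.6 FPKM at E15.5, against 238, 177 and 176 FPKM at E11.5 (log2 change -1.99, limma adjusted p = 3.88e-04), and Spr, the last enzyme of its synthesis, had 9.5, 11.9 and 5.39 FPKM at E15.5 and 29.2, 31.9 and 26.2 FPKM at E11.5 (log2 change -1.66, limma adjusted p = 0.00255). The vesicular monoamine transporter Slc18a2 was not called with limma, at 20.1, 17 and 26.8 FPKM at E15.5 and 20.8, 24.5 and 57.4 FPKM at E11.5 (log2 change -0.54, limma adjusted p = 0.298). In the authors' deposited stage table Slc18a2 was past the threshold as a fall, with a log2 fold change of -0.691 and a q-value of 0.00863.

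Another kit gave other levels for part of these genes. In the authors' deposited table of E15.5 wild-type neurons amplified with the NuGEN Ovation kit, a table normalised separately, the group FPKM were 218 for Tph2, 67.6 for Slc6a4, 203 for Ddc and 83.7 for Slc18a2. The NuGEN values of Tph2 and Slc6a4 lie within the ranges of the E11.5 libraries, and that of Ddc lies between the stages. The value of Slc18a2 lies above all 6 libraries compared here. For Slc22a3, Pcbd1 and Spr the authors' deposited table gave 8.7, 42 and 15.2 FPKM, below all E11.5 libraries. What the kit contributes to the level of Tph2 and Slc6a4 was not tested.

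Among 16 tested factors that specify or maintain serotonin neurons, 8 fell and 1 was higher, and the median log2 change was -1.29. Fev fell in every E15.5 library relative to all E11.5 libraries, with E15.5 c lowest (limma adjusted p = 0.00104, log2 change -2.99 with SE 0.49). Gata2, the zinc finger factor that acts upstream of Fev, had 44.5, 38.8 and 20.3 FPKM at E15.5, against 173, 143 and 89.2 FPKM at E11.5, with no overlap (log2 change -1.96, limma adjusted p = 0.00175). Its relative Gata3 had 175, 121 and 152 FPKM at E15.5 and 296, 181 and 262 FPKM at E11.5 and was not called with limma (log2 change -0.705, limma adjusted p = 0.0581). In the authors' deposited stage table Gata3 was past the threshold as a fall, with a log2 fold change of -0.692 and a q-value of 3.88e-04. Lmx1b, the LIM homeobox factor needed for serotonin neuron differentiation, had 5.69, 7.31 and 5.19 FPKM at E15.5 and 54.1, 19.4 and 21.2 FPKM at E11.5 (log2 change -2.06, limma adjusted p = 0.0142), a call lost without the filter on low values (limma adjusted p = 0.057). Insm1, a zinc finger factor of newborn neurons and endocrine cells, had 11.1, 10.1 and 6.56 FPKM at E15.5 and 73.7, 44.5 and 39.5 FPKM at E11.5. The homeobox gene Hmx2 had 13.9, 8.11 and 6.13 FPKM at E15.5 and 82.7, 51.7 and 52.7 FPKM at E11.5. Both were lower in all E15.5 libraries than in any E11.5 library (log2 changes -2.36 and -2.64, limma adjusted p = 5.74e-04 and 5.92e-04). The POU factor gene Pou3f2 (log2 change -2.15, limma adjusted p = 0.00481) also fell. Against them, the HMG box gene Tox had 124, 105 and 126 FPKM at E15.5 and 73.9, 24.1 and 45.6 FPKM at E11.5 and was the single rise of the list (log2 change 1.42, limma adjusted p = 0.0101).

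**Figure D2:**
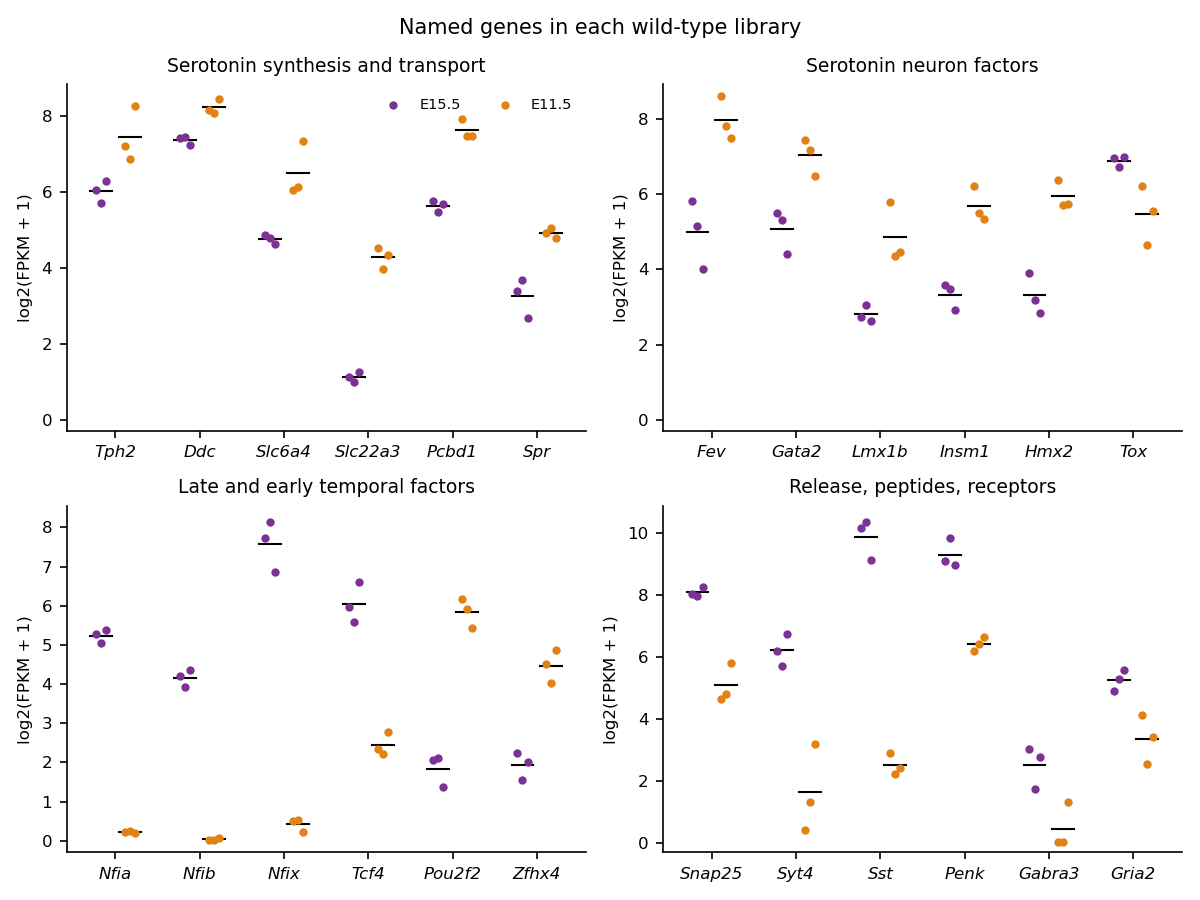
Level of 24 named genes in each library, as log2(FPKM + 1), with E15.5 libraries in purple to the left of E11.5 libraries in orange and the mean as a black bar. Fev, Gata2 and Slc22a3 are lower in all 3 E15.5 libraries, and Nfia, Nfib and Nfix are below 1 FPKM in every E11.5 library.

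The series also located a Myc-tagged Pet-1 on chromatin of embryonic hindbrain, in 1 sample. Those embryos lacked Pet-1 itself and carried the tagged Pet-1 and EYFP as transgenes under the Pet-1 enhancer, and they were taken later than E11.5, per the labels' protocol. The authors' peak list for mm10 held 4934 peaks. Peaks lay at or near the start sites of 3 factors that fell. Near Fev itself a peak spanned chr1:74885425-74887312, beginning 17 bases from the annotated start site, with the authors' peak score at 59.9. The transgenes carry sequence of the Pet-1 locus, and their part in this peak was not tested. The peak at Gata2, chr6:88193503-88195485, covered the start site and had a score of 297. The peak at Lmx1b, chr2:33641729-33643093, lay 631 bases from it with a score of 219. The promoters of these genes are shown because their transcripts fell and a peak lay at or near the start site. The peaks of Fev and Gata2 overlap the windows shown, and that of Lmx1b lies outside its window. They are given 5′ to 3′ on the strand of the gene, from RefSeq on GRCm38.p6, as 250 bases before and 50 after the start site, at chr1:74885359-74885658 (minus strand) for Fev, chr6:88193641-88193940 (plus strand) for Gata2 and chr2:33641049-33641348 (minus strand) for Lmx1b. Capitals mark GGAA, the core of ETS sites, or its complement TTCC:
Fev: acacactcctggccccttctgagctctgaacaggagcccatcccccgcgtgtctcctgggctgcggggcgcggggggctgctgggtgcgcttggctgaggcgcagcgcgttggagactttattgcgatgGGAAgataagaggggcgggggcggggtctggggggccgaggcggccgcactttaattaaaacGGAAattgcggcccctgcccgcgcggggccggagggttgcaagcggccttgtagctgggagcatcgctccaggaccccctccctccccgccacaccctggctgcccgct
Gata2: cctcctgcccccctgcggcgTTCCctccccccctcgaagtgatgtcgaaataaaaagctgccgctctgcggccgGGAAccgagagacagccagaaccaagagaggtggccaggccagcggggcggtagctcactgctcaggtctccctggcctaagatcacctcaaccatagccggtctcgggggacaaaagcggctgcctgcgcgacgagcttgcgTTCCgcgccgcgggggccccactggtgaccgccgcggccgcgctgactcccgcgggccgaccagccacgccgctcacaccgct
Lmx1b: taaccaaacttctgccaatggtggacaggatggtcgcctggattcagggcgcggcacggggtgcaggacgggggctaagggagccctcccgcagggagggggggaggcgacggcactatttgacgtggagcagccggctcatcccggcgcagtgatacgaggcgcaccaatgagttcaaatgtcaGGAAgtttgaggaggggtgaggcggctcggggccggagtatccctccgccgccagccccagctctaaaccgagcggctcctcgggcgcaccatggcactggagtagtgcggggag
The core occurs 2 times in the Fev window, 3 times in that of Gata2 and 1 time in that of Lmx1b. This is a description only, since 96% of all 32851 promoters of this length hold GGAA on one strand or the other. The longer CGGAAG, searched on both strands and overlapping GGAA wherever it occurs, is in none of the 3 windows. It is in 16.9% of all promoters, in 48.9% of the 3226 promoters of tested genes that overlap a peak and in 23.9% of the 8718 that do not.

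Pet-1 peaks within 5 kb of the start site were counted over all tested genes with a matched start site. The share with a peak was 30% of 1573 genes higher at E15.5, 39.1% of 1055 genes lower at E15.5 and 36.7% of 6638 genes not called. Counting peaks inside the gene as well gave 30.8%, 41.5% and 37.8%. With only the 2467 peaks of higher score the shares were 16.5%, 21.3% and 20.5%. These are shares of genes around 1 chromatin sample and were not tested.

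Factors of the nuclear factor I family (NFI), which mark late-born and maturing cells along the neural tube, were called higher. Nfix had 211, 281 and 116 FPKM at E15.5, against 0.415, 0.45 and 0.164 FPKM at E11.5. Nfia had 38, 32 and 40.7 FPKM at E15.5, against 0.176, 0.188 and 0.152 FPKM at E11.5, and Nfib had 17.6, 14.1 and 19.5 FPKM at E15.5, against 0.0116, 0.0125 and 0.0436 FPKM at E11.5. All 3 genes were below 1 FPKM in every E11.5 library and above 10 FPKM in every E15.5 library (log2 changes 7.16, 5.01 and 4.13, limma adjusted p = 1.24e-07, 1.31e-06 and 5.67e-06). The authors' deposited stage table gave a q-value of 0.359 for Nfib, past no threshold there. The NuGEN E15.5 group of the authors' deposited table had 50.7 FPKM for Nfix, 20.2 for Nfia and 27.7 for Nfib, all above every E11.5 library. Its values of Nfix and Nfia were below all E15.5 libraries compared here, and that of Nfib was above them. The E protein gene Tcf4, partner of basic helix-loop-helix factors, had 61.8, 47.2 and 96.5 FPKM at E15.5, against 4.03, 3.62 and 5.83 FPKM at E11.5 (log2 change 3.62, limma adjusted p = 3.48e-05). In all, 9 of 25 tested members of the list of late temporal factors rose, among them Bcl11a, Bcl11b, Klf7, Mef2a and Neurod6, and 6 fell. The falls were led by the POU factor gene Pou2f2, at 3.18, 3.3 and 1.57 FPKM at E15.5 and 70.9, 58.9 and 42.3 FPKM at E11.5. The zinc finger homeobox genes Zfhx2 (log2 change -3.33, limma adjusted p = 1.72e-04) and Zfhx4 (log2 change -2.53, limma adjusted p = 3.98e-04) and the early B-cell factor gene Ebf1 (log2 change -2.76, limma adjusted p = 4.19e-04) fell as well, as did Pou2f2 itself (log2 change -3.99, limma adjusted p = 1.41e-05).

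Genes of newborn neurons were mixed. Of 10 tested genes 3 fell and 1 rose. The zinc finger gene Myt1, active as progenitors become neurons, had 1.42, 2.32 and 2.62 FPKM at E15.5 and 11.9, 12.1 and 28.8 FPKM at E11.5 (log2 change -2.48, limma adjusted p = 9.35e-04), and the repressor gene Scrt2 had 2.54, 0.878 and 0.757 FPKM at E15.5 and 16.4, 11.8 and 5.55 FPKM at E11.5 (log2 change -2.32, limma adjusted p = 0.00254). The SoxC gene Sox11 stayed high at both stages, with 336, 209 and 323 FPKM at E15.5 and 269.7, 142 and 243 FPKM at E11.5, and was not called (log2 change 0.43, limma adjusted p = 0.316). In the Notch pathway 4 of 13 tested genes fell and 1 rose, with 2 falls without E11.5 b or without E15.5 c. The ligand gene Dll3 had 5.01, 4.27 and 1.87 FPKM at E15.5 and 10.2, 18.5 and 15.6 FPKM at E11.5 (log2 change -1.77, limma adjusted p = 0.00904), while Dner, a Notch-related membrane protein of postmitotic neurons, had 27.3, 25.6 and 23.9 FPKM at E15.5 and 1.72, 1.85 and 3.39 FPKM at E11.5 (log2 change 3.03, limma adjusted p = 5.36e-05). Among retinoid genes the retinoic acid binding protein Crabp2 had 8.3, 2.65 and 3.04 FPKM at E15.5, against 222, 134 and 118 FPKM at E11.5, with no overlap between stages (log2 change -4.89, limma adjusted p = 1.04e-05). The retinoic acid receptor gene Rara was lower too, at 0.32, 1.55 and 0.494 FPKM at E15.5 and 9.3, 10.5 and 7.05 FPKM at E11.5 (log2 change -2.52, limma adjusted p = 4.46e-04). Dhrs3, a reductase that lowers retinaldehyde, had 7.68, 10.1 and 5.75 FPKM at E15.5 and was listed at 0 in all 3 E11.5 libraries (limma adjusted p = 5.33e-04).

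RNA regulators of the early embryo fell. Of 14 tested genes of this list 8 fell and 1 rose, with a median log2 change of -1.31, and 7 or 8 fell whichever library was left out. The mRNA-binding protein gene Igf2bp1 had 1.53, 1.38 and 1.24 FPKM at E15.5, against 17.7, 13.5 and 13.4 FPKM at E11.5. Its relative Igf2bp3 had 3.49, 2.48 and 5.6 FPKM at E15.5, against 13.8, 25.8 and 47.2 FPKM at E11.5, and Igf2bp2 had 3.23, 3.53 and 2.67 FPKM at E15.5, against 18.7, 10.4 and 14.1 FPKM at E11.5. No E15.5 library reached the lowest E11.5 library for any of the 3 (log2 changes -2.72, -2.51 and -1.86, limma adjusted p = 1.09e-04, 0.00304 and 0.00195). Lin28a, which blocks maturation of let-7 microRNAs, had no FPKM above 0 at E15.5, being listed at 0 in each library, and had 1.87, 1.29 and 1.7 FPKM at E11.5 (limma adjusted p = 0.00203). The architectural chromatin protein gene Hmga2, a let-7 target, had 0.334, 0.04003 and 0.179 FPKM at E15.5 and 1.88, 2.69 and 1.51 FPKM at E11.5 (log2 change -1.34, limma adjusted p = 0.00679). Arid3b, another let-7 target, fell as well (log2 change -2.26, limma adjusted p = 0.00109). The single rise, Dis3l2, was lost with every library left out except E11.5 c, and under the upper quartile scaling.

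Of 26 tested RNA-binding proteins of neurons, many of them splicing regulators, 4 rose (15.4%) and 2 fell (7.69%), neither share above that of all tested genes. Rbfox1, a regulator of neuronal exons, had 36.9, 34.1 and 50.6 FPKM at E15.5, against 3.09, 4.9 and 3.08 FPKM at E11.5 (log2 change 3.15, limma adjusted p = 4.28e-05). Nova1 had 13, 10.4 and 19.7 FPKM at E15.5 and 1.12, 1.68 and 4.69 FPKM at E11.5, whereas its paralog Nova2 had 3.6, 4.21 and 2.4 FPKM at E15.5 and 16.9, 11.6 and 10.2 FPKM at E11.5. The paralogs thus moved in opposite directions, each without overlap between stages (log2 changes 2.23 and -1.65, limma adjusted p = 0.00344 and 0.00544). The related pair Celf4 (log2 change 1.25, limma adjusted p = 0.00166) and Celf3 (log2 change -1.61, limma adjusted p = 0.0103) also went up and down.

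A similar exchange was seen among the catalytic subunits of the BAF chromatin remodelling complex. Smarca2, the ATPase also called Brm, had 199.6, 158 and 253 FPKM at E15.5, against 27.5, 27.9 and 42.4 FPKM at E11.5. Smarca4, the alternative ATPase Brg1, had 17.4, 25.1 and 16.4 FPKM at E15.5, against 121, 94.7 and 76.1 FPKM at E11.5. The E15.5 libraries lay wholly above the E11.5 libraries for Smarca2 and wholly below them for Smarca4 (log2 changes 2.61 and -2.25, limma adjusted p = 7.86e-05 and 2.07e-04). The NuGEN E15.5 group of the authors' deposited table had 175 FPKM for Smarca2, within the range of the E15.5 libraries, and 33.6 FPKM for Smarca4, below all E11.5 libraries. A subunit pair known to switch when progenitors become neurons, Actl6a and Actl6b, showed no call. The neuronal Actl6b had 53.6, 87.7 and 49 FPKM at E15.5 and 59, 45 and 50.3 FPKM at E11.5. Actl6a had 74.9, 51.6 and 72.7 FPKM at E15.5 and 90.1, 90.3 and 109 FPKM at E11.5, lower in every E15.5 library though not called. The authors' deposited stage table gave Actl6a a log2 fold change of -0.53 and a q-value of 0.034, short of 1.5-fold. Over the list of BAF and other chromatin enzymes 4 of 39 genes rose and 10 fell, 2 and 6 without E15.5 c, 2 rises also without E11.5 b, E15.5 a or E15.5 b. Further falls were Arid1a, the large BAF subunit (log2 change -1.83, limma adjusted p = 0.0015), the neuronal BAF subunit Dpf1 (log2 change -2.04, limma adjusted p = 4.57e-04) and the histone deacetylase Hdac5 (log2 change -2.02, limma adjusted p = 0.00174).

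Genes for the cytosolic ribosome were lower at E15.5 as a group. Of 84 tested ribosomal protein genes 56 fell and 1 rose, with a median log2 change of -0.97, and 37 fell without E11.5 a or without E15.5 c. Under upper quartile scaling 64 fell. All 87 members together held 14.6%, 14.3% and 12% of the summed FPKM at E15.5, against 24.6%, 22.9% and 22.9% at E11.5. Rps20 had 1302, 1209 and 794 FPKM at E15.5, against 3162, 3301 and 3552 FPKM at E11.5 (log2 change -1.63, limma adjusted p = 4.46e-04), and Rps12 had 479, 452 and 284 FPKM at E15.5, against 1687, 1213 and 1182 FPKM at E11.5 (log2 change -1.76, limma adjusted p = 4.65e-04). Ribosomal protein genes have many near-identical processed copies in the mouse genome among which reads can be split, so single values are uncertain. This holds in particular for Rpl26, the single rise, which was listed at 0 in E11.5 a. Of ribosomal proteins of mitochondria 10 of 75 tested genes were higher (13.3%) and 9 lower (12%), close to the shares of all tested genes, with a median log2 change of 0.04, though with 1 library left out the rises were 2 to 8 and the falls 2 to 7. Among translation factors the helicase paralogs moved apart. Eif4a2 had 487, 372 and 626 FPKM at E15.5, against 42.9, 56.1 and 98.6 FPKM at E11.5, and Eif4a1 had 176, 116 and 127 FPKM at E15.5, against 577, 626 and 933 FPKM at E11.5. Neither overlapped between stages (log2 changes 2.95 and -2.33, limma adjusted p = 6.37e-05 and 1.45e-04).

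Among cadherins and protocadherins 13 of 22 tested genes rose and 1 fell, a median log2 change of 1.204, with 8 rises without E15.5 b. Cdh10 had 9.58, 4.16 and 8.38 FPKM at E15.5, against 0.021, 0.145 and 0.337 FPKM at E11.5, and Cdh6 had 3.1, 8.19 and 4.32 FPKM at E15.5, against 0, 0.0468 and 0.519 FPKM at E11.5. Both were below 1 FPKM in every E11.5 library and above 3 FPKM in every E15.5 library (log2 changes 2.79 and 2.33, limma adjusted p = 4.76e-04 and 9.92e-04). Pcdh17, a protocadherin of axon bundles, had 7.34, 6.39 and 8.99 FPKM at E15.5 and 1.96, 1.01 and 1.3 FPKM at E11.5 (log2 change 1.83, limma adjusted p = 0.0016). The fall was Celsr2, an atypical cadherin of planar polarity, with 6.76, 9.96 and 4.19 FPKM at E15.5 and 49, 36.6 and 27.4 FPKM at E11.5 (log2 change -2.31, limma adjusted p = 9.32e-04). The neural cadherin gene Cdh2 was not called, at 28.1, 25.3 and 36.3 FPKM at E15.5 and 16.8, 16 and 38.4 FPKM at E11.5 (log2 change 0.42, limma adjusted p = 0.396).

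Of 39 tested genes for synaptic adhesion 20 rose and 3 fell, with a median log2 change of 1.12. Cbln4, a secreted cerebellin that bridges presynaptic neurexins to postsynaptic partners, had 42, 34.4 and 45.9 FPKM at E15.5, against 0.0816, 0.123 and 0.111 FPKM at E11.5. No E11.5 library came near the E15.5 libraries, though the authors' deposited stage table gave Cbln4 a q-value of 0.332 (log2 change 5.23, limma adjusted p = 2.11e-07). Ntm had 74.8, 133 and 96.9 FPKM at E15.5 and 6.53, 0.756 and 3.24 FPKM at E11.5, and Lsamp, of the same IgLON family of membrane-anchored adhesion proteins, had 27.3, 25.8 and 47.8 FPKM at E15.5 and 4.55, 1.23 and 7.1 FPKM at E11.5 (log2 changes 4.703 and 2.84, limma adjusted p = 3.48e-05 and 0.00114). The leucine-rich repeat protein gene Lrrtm3, a neurexin ligand, had 8.8, 11 and 18.1 FPKM at E15.5 and 0.0379, 0.0114 and 0.00867 FPKM at E11.5 (log2 change 3.68, limma adjusted p = 5.33e-05). Of the falls, the neurexin gene Nrxn2 had 1.96, 2.89 and 1.3 FPKM at E15.5 and 7.87, 14.3 and 8.07 FPKM at E11.5, without overlap (log2 change -1.85, limma adjusted p = 0.00361).

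Growth cone proteins, already abundant at E11.5, rose further in 11 of 30 tested genes and fell in 4. Gap43, the growth-associated protein of extending axons, had 3975, 3993 and 2884 FPKM at E15.5, against 1262, 1163 and 907 FPKM at E11.5 (log2 change 1.700, limma adjusted p = 3.93e-04). Dpysl2, a collapsin response mediator that binds tubulin, had 715, 489 and 546 FPKM at E15.5, against 121, 74.4 and 114 FPKM at E11.5 (log2 change 2.503, limma adjusted p = 9.80e-05). The neural cell adhesion gene Ncam1 had 394, 362 and 421 FPKM at E15.5, against 113, 93.1 and 130.2 FPKM at E11.5 (log2 change 1.81, limma adjusted p = 1.58e-04). For each of these genes the lowest E15.5 library exceeded the highest E11.5 library. Of the falls, Marcksl1, a membrane and actin binding protein, had 181, 169 and 89.7 FPKM at E15.5 and 479, 493 and 397 FPKM at E11.5 (log2 change -1.69, limma adjusted p = 0.00213). Among microtubule genes 6 of 26 rose and 3 fell, 3 rises without E15.5 a and 6 falls under upper quartile scaling. The list has 34 members, of which 28 were kept. Tuba1a, Tuba1b, Tuba1c, Tubb3, Stmn1 and Mtap1b, abundant genes of neurons, are missing from these counts because their estimates failed in the authors' stage tests. Tubb2a, a neuronal beta tubulin, had 1549.8, 1481 and 1135 FPKM at E15.5, against 279.8, 220.2 and 204 FPKM at E11.5 (log2 change 2.56, limma adjusted p = 3.18e-05), and Mapt, the axonal protein tau, had 174, 185 and 165 FPKM at E15.5, against 78.6, 42.2 and 50.4 FPKM at E11.5 (log2 change 1.64, limma adjusted p = 7.27e-04). Tppp3, a tubulin polymerisation promoter, fell to 90.3, 147 and 73 FPKM at E15.5, against 476, 514 and 509 FPKM at E11.5 (log2 change -2.32, limma adjusted p = 3.33e-04). Doublecortin, Dcx, was not called, at 21.4, 17 and 27.3 FPKM at E15.5 and 25.9, 17.9 and 37.4 FPKM at E11.5 (limma adjusted p = 0.617).

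Of 35 tested genes of the netrin, Slit and semaphorin systems 5 rose (14.3%) and 8 fell (22.9%), and the counts ranged from 2 to 7 and from 2 to 6 with 1 library left out. Dcc, the netrin receptor of commissural axons, had 2.16, 2.06 and 3.88 FPKM at E15.5 and 12.9, 6.66 and 10.3 FPKM at E11.5, and the semaphorin gene Sema3f had 1.25, 1.11 and 0.845 FPKM at E15.5 and 3.57, 5.35 and 10.8 FPKM at E11.5 (log2 changes -1.56 and -1.76, limma adjusted p = 0.00968 and 0.00459). The Slit receptor gene Robo1 had 5.85, 6.8 and 6.16 FPKM at E15.5 and 2.3, 1.6 and 1.92 FPKM at E11.5, and the netrin receptor gene Unc5d had 1.84, 1.75 and 2.24 FPKM at E15.5 and 0.0415, 0.00213 and 0.318 FPKM at E11.5 (log2 changes 1.31 and 1.401, limma adjusted p = 0.0137 and 0.00548). Of 18 ephrin system genes 2 rose and 2 fell, 11.1% each, which is not above the shares of all tested genes. Epha7 had 12, 11.4 and 20.4 FPKM at E15.5 and 0.979, 0.904 and 4.05 FPKM at E11.5 (log2 change 2.502, limma adjusted p = 0.00189). Among the ligands Efna5 had 25.8, 20.04 and 20.9 FPKM at E15.5 and 5.6, 3.81 and 2.12 FPKM at E11.5, and Efna2 had 6.17, 3.999 and 3.41 FPKM at E15.5 and 30.8, 15.3 and 11.2 FPKM at E11.5, so that one ephrin A ligand was higher and the other lower (log2 changes 2.32 and -1.77, limma adjusted p = 4.79e-04 and 0.00689).

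Of 27 tested genes for the vesicle membrane and its recycling 14 rose and 2 fell, with a median log2 change of 1.04 and 12 or 13 rises with 1 library left out, and 1 fall without any one library other than E11.5 c. The vesicle protein Synpr had 21.6, 10.9 and 26.4 FPKM at E15.5, against 0.0397, 0.343 and 0.0427 FPKM at E11.5, and Syngr3 had 283, 258 and 159.6 FPKM at E15.5, against 18.3, 19.5 and 26.2 FPKM at E11.5. Neither overlapped between stages (log2 changes 4.100 and 3.37, limma adjusted p = 5.07e-05 and 2.39e-05). The proton pore subunit Atp6v0c, which helps to fill vesicles, had 1299, 1204 and 568 FPKM at E15.5, against 53.8, 68.3 and 36.3 FPKM at E11.5 (log2 change 4.21, limma adjusted p = 1.72e-05). It has pseudogene copies, so its level is uncertain. Of the vacuolar ATPase as a whole 7 of 16 tested subunits rose and 0 fell with limma. At an unadjusted p below 0.05, 1 was lower, and the authors' deposited stage table called 0 lower. In the release machinery 11 of 37 tested genes rose and 2 fell, with 0 falls without E15.5 a or E15.5 b and 1 without E11.5 a, E11.5 b or E15.5 c. The SNARE protein gene Snap25 had 263, 249.5 and 311 FPKM at E15.5, against 24, 27 and 55.7 FPKM at E11.5, and Stx1a, its syntaxin partner, had 92.3, 106 and 52.9 FPKM at E15.5, against 14.3, 29.9 and 13.5 FPKM at E11.5. In both, all E15.5 libraries were higher (log2 changes 3.01 and 2.097, limma adjusted p = 5.67e-05 and 0.0012). Syt4, a synaptotagmin of dense core vesicles, had 72.1, 51.3 and 107 FPKM at E15.5 and 0.345, 1.49 and 8.09 FPKM at E11.5 (log2 change 4.58, limma adjusted p = 1.80e-04, with a log2 change of 3.97 without E11.5 a and 5.35 without E11.5 c). The SNARE gene Vamp2 was not called, at 22.3, 28.9 and 33.4 FPKM at E15.5 and 24.3, 18.4 and 17.1 FPKM at E11.5 (limma adjusted p = 0.269).

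Of 32 tested genes for motors and their adaptors 8 fell and 1 rose, with a median log2 change of -0.62. There were 5 falls without E11.5 b or any one of the E15.5 libraries, and 13 under upper quartile scaling. The kinesin heavy chain gene Kif5c had 13.2, 14.8 and 18.2 FPKM at E15.5, against 31.3, 40.3 and 36.2 FPKM at E11.5, and Dctn1, the dynactin subunit that links dynein to cargo, had 15.1, 17.5 and 8.48 FPKM at E15.5, against 45, 55.8 and 49.2 FPKM at E11.5 (log2 changes -1.18 and -1.85, limma adjusted p = 0.00601 and 0.00117). The rise was Dync1i1, a dynein intermediate chain, with 6.91, 9.22 and 7.87 FPKM at E15.5 and 0.036, 1.86 and 1.73 FPKM at E11.5 (log2 change 2.16, limma adjusted p = 0.00228).

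**Figure D3:**
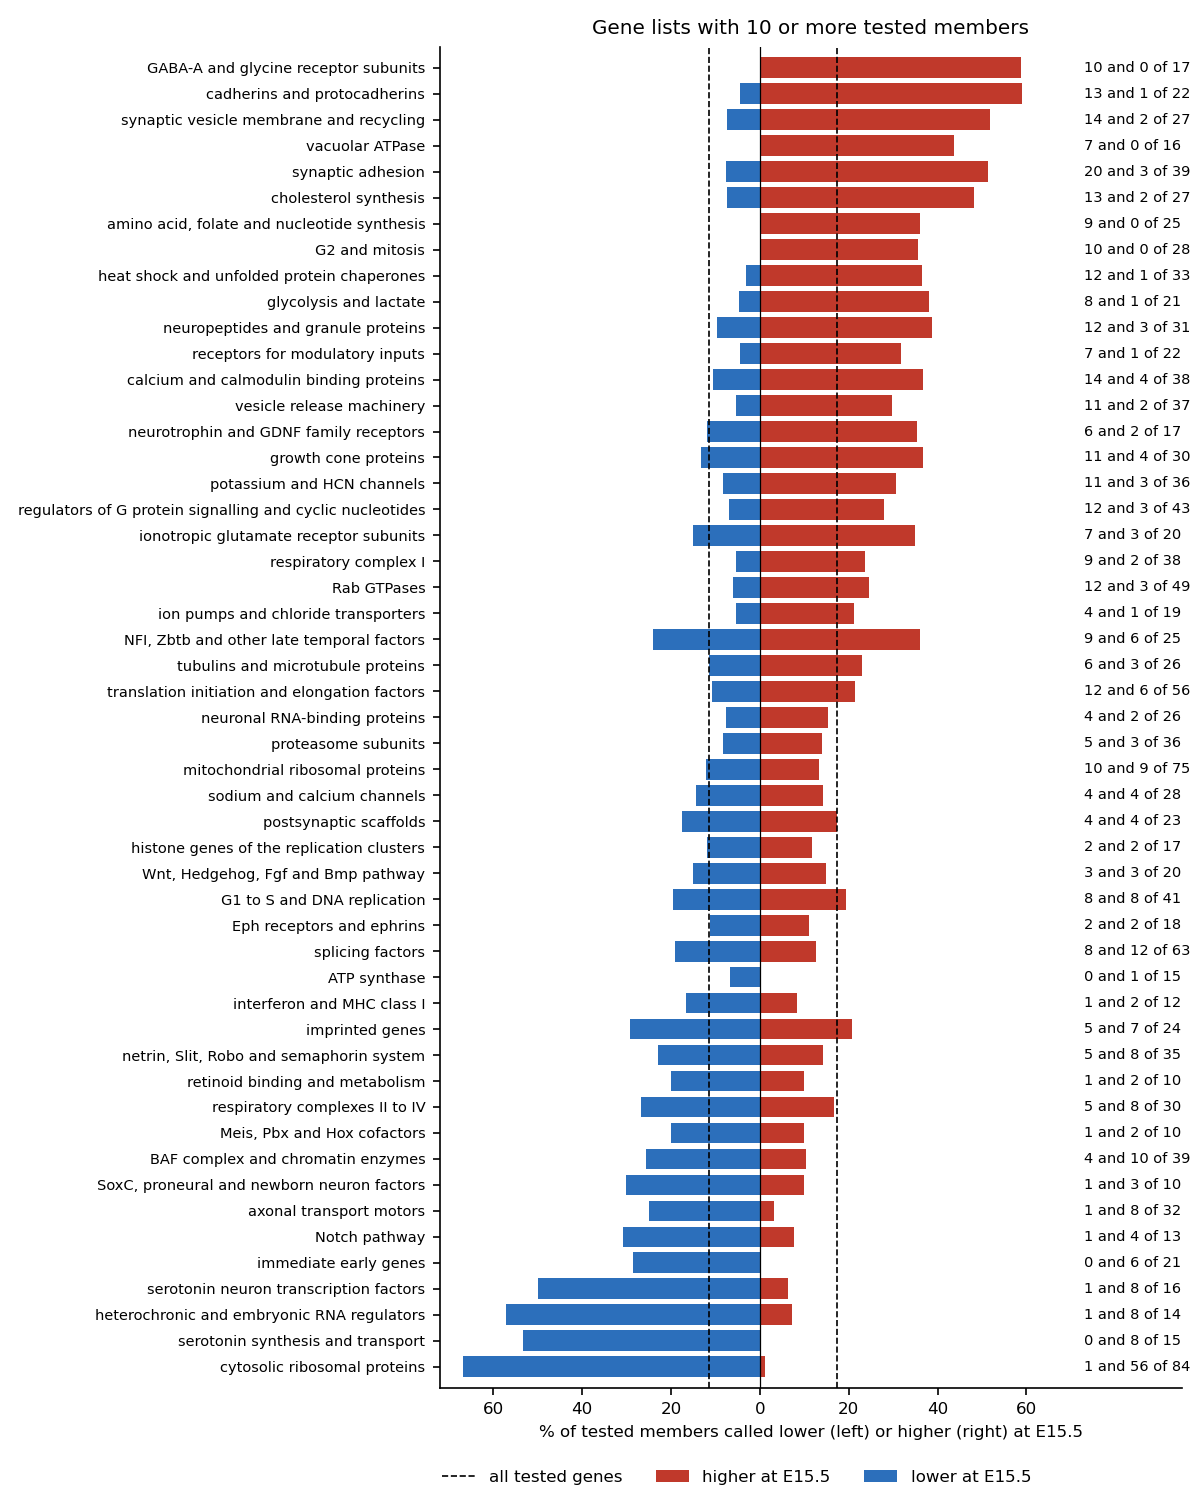
Share of the tested members of each gene list called lower (blue, to the left) or higher (red, to the right) at E15.5, for the 51 lists with 10 or more tested members apart from cell type markers. Figures at the right give the members higher and lower and the number tested, and dashed lines mark 17.4% and 11.48%, the shares among all tested genes. GABA and glycine receptors, with 10 and 0 of 17, stand at the top and cytosolic ribosomal proteins, with 1 and 56 of 84, at the bottom.

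Of 17 tested GABA-A, GABA-B and glycine receptor genes 10 rose and 0 fell with limma, 0 were lower at an unadjusted p below 0.05 and 0 were called lower in the authors' deposited stage table, with a median log2 change of 1.35, and 6 rose without E11.5 b, E15.5 b or E15.5 c. Gabra5, an alpha subunit of extrasynaptic receptors, had 2.18, 4.64 and 6.7 FPKM at E15.5 and 0, 0.0385 and 0 FPKM at E11.5, and Gabra3 had 7.16, 2.33 and 5.87 FPKM at E15.5 and 0.0183, 0.0166 and 1.5 FPKM at E11.5 (log2 changes 2.35 and 2.06, limma adjusted p = 8.07e-04 and 0.00948). Gabra2 was not called, at 0.428, 2.28 and 2.64 FPKM at E15.5 and 0.43, 1.83 and 1.23 FPKM at E11.5 (limma adjusted p = 0.621).

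For ionotropic glutamate receptors 7 of 20 tested genes rose and 3 fell. The AMPA subunit gene Gria2, which limits calcium entry, had 29.3, 38.7 and 47.6 FPKM at E15.5, against 16.6, 4.87 and 9.82 FPKM at E11.5 (log2 change 1.903, limma adjusted p = 0.00546). Gria3 had 2.45, 3.67 and 4.42 FPKM at E15.5 and was listed at 0 in all E11.5 libraries (limma adjusted p = 6.89e-04). The NMDA subunit gene Grin2b had 3.53, 4.06 and 3.63 FPKM at E15.5 and 0.484, 0.115 and 0.0451 FPKM at E11.5 (log2 change 1.98, limma adjusted p = 8.76e-04), while the obligatory subunit gene Grin1 was at 0.745, 3.33 and 1.35 FPKM at E15.5 and 0.75, 0.0592 and 0.62 FPKM at E11.5 and was not called (limma adjusted p = 0.124). AMPA receptor auxiliary subunits divided. Cacng3 had 17.4, 15.7 and 7.71 FPKM at E15.5 and 0.0649, 0 and 0.113 FPKM at E11.5, and Cnih2 had 36.9, 29.1 and 13.4 FPKM at E15.5 and 114, 89.9 and 62.9 FPKM at E11.5, so that Cacng3 was higher and Cnih2 lower in every E15.5 library (log2 changes 3.71 and -1.78, limma adjusted p = 4.62e-05 and 0.00485). Of 5 tested genes of nicotinic receptors and their modulators 2 fell and 1 rose. The rise was Chrna3, with 3.36, 1.55 and 2.67 FPKM at E15.5 and 0, 0.852 and 0.851 FPKM at E11.5 (log2 change 1.19, limma adjusted p = 0.0302), a call lost without E11.5 a, E15.5 a or E15.5 c, without the filter on low values and with the smaller pseudocount (limma adjusted p = 0.0529 to 0.0991). Chrna4, the subunit of the common brain receptor, had 11.9, 8.59 and 7.34 FPKM at E15.5 and 27.5, 24.6 and 34.8 FPKM at E11.5, and Ly6h, a membrane-anchored modulator of these receptors, had 78.7, 63.6 and 28.6 FPKM at E15.5 and 238, 504 and 291 FPKM at E11.5 and both were lower in every E15.5 library (log2 changes -1.55 and -2.62, limma adjusted p = 0.00746 and 6.99e-04). The postsynaptic scaffold list had 4 rises and 4 falls among 23 tested genes, with 1 to 4 and 2 to 4 when 1 library was left out.

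Of the serotonin receptors 4 passed the filter and the channel-forming Htr3a rose, with 12.6, 9.23 and 7.68 FPKM at E15.5, against 0, 0.398 and 0 FPKM at E11.5 (log2 change 3.25, limma adjusted p = 7.04e-05). The autoreceptor gene Htr1a was not called, at 0.191, 1.05 and 1.42 FPKM at E15.5 and 1.47, 1.36 and 1.46 FPKM at E11.5 (limma adjusted p = 0.412), and Htr1b stayed below 1 FPKM in all 6 libraries. Of 22 tested receptors for other modulators 7 rose and 1 fell. Both somatostatin receptor genes called were rises. Sstr2 had 10.6, 6.03 and 6.28 FPKM at E15.5 and 0, 1.62 and 0 FPKM at E11.5, and Sstr1 had 4.49, 4.05 and 3.46 FPKM at E15.5 and 0.0122, 0.0273 and 0.203 FPKM at E11.5 (log2 changes 2.61 and 2.21, limma adjusted p = 0.00105 and 0.00137). The histamine autoreceptor gene Hrh3 fell, at 2.19, 0.694 and 0.784 FPKM at E15.5 and 11.8, 5.24 and 12 FPKM at E11.5 (log2 change -2.25, limma adjusted p = 0.00173). Among growth factor receptors Ntrk2, the receptor for BDNF, had 5.86, 8.56 and 7.52 FPKM at E15.5, against 0.267, 0.717 and 0.166 FPKM at E11.5, and the GDNF co-receptor gene Gfra1 had 25, 15.9 and 24.2 FPKM at E15.5, against 2.45, 2.23 and 3.28 FPKM at E11.5 (log2 changes 2.59 and 2.62, limma adjusted p = 2.00e-04 and 1.43e-04). The low-affinity neurotrophin receptor Ngfr was lower, at 0.355, 0.03003 and 0.227 FPKM at E15.5 and 1.93, 2.48 and 3.4 FPKM at E11.5 (log2 change -1.57, limma adjusted p = 0.00271).

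Among potassium channels 11 of 36 tested genes rose and 3 fell, 7 rises without E11.5 b. Kcnd2, an A-type channel, had 3.01, 2.74 and 4.95 FPKM at E15.5 and 0.0154, 0.00915 and 0.142 FPKM at E11.5, and Kcnk2, a two-pore background channel, had 5.54, 6.18 and 6.82 FPKM at E15.5 and 0.0117, 1.02 and 2.12 FPKM at E11.5 (log2 changes 2.08 and 1.95, limma adjusted p = 0.00255 and 0.00868). Kcnh2, the channel called ERG, had 0.215, 0.62 and 0.351 FPKM at E15.5, against 21.4, 13.7 and 6.66 FPKM at E11.5, a fall in which no E15.5 library reached 1 FPKM (log2 change -3.296, limma adjusted p = 1.77e-04). Of 28 sodium and calcium channel genes 4 rose and 4 fell, with 2 or 3 rises and 2 to 5 falls when 1 library was left out. The auxiliary sodium channel subunit Scn3b had 22.4, 18.3 and 23.4 FPKM at E15.5 and 0.863, 2.42 and 3.15 FPKM at E11.5, and the calcium channel beta subunit Cacnb3 had 39.5, 47.1 and 30.6 FPKM at E15.5 and 76.8, 97.6 and 78 FPKM at E11.5, a rise and a fall without overlap (log2 changes 2.903 and -1.099, limma adjusted p = 1.34e-04 and 0.00756). The sodium pump subunit Atp1b1 rose as well, with 18.4, 18.4 and 17.8 FPKM at E15.5 and 3.02, 2.63 and 8.89 FPKM at E11.5 (log2 change 1.87, limma adjusted p = 0.003002).

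The largest fitted rises of all tested genes were those of Pcp4 and Sst. Pcp4, a small calmodulin regulator, had 292, 332 and 278 FPKM at E15.5, against 0.591, 0.623 and 0.481 FPKM at E11.5. The somatostatin gene Sst had 1152, 1319 and 560.4 FPKM at E15.5, against 6.49, 3.72 and 4.34 FPKM at E11.5. Every E15.5 library lay above every E11.5 library for both genes (log2 changes 7.59 and 7.37, limma adjusted p = 2.88e-09 and 5.76e-08), although the authors' deposited stage table gave Pcp4 a q-value of 0.364. The NuGEN E15.5 group of the authors' deposited table had 140 FPKM for Pcp4 and 262 for Sst. Both values were below all 3 E15.5 libraries compared here and above all E11.5 libraries. Pdyn, the prodynorphin gene, had 14.4, 29 and 20.9 FPKM at E15.5 and 0.168, 0.16 and 0.0492 FPKM at E11.5, and Penk, which encodes proenkephalin, had 549.9, 925 and 502 FPKM at E15.5 and 73.3, 85.9 and 101 FPKM at E11.5. Both opioid precursors were higher in every E15.5 library (log2 changes 4.27 and 2.87, limma adjusted p = 1.12e-05 and 3.48e-05). The whole peptide list had 12 rises and 3 falls among 31 tested genes, the falls being Adcyap1, Nxph4 and the granin gene Chgb. Chgb, abundant at both stages, had 368, 553 and 493 FPKM at E15.5 and 1107, 1209 and 1426 FPKM at E11.5 (log2 change -1.41, limma adjusted p = 0.00107). Of 38 genes of the calcium list 14 rose and 4 fell. Calretinin, Calb2, had 18.6, 31.7 and 16.8 FPKM at E15.5 and 0.233, 0.223 and 0.185 FPKM at E11.5, and the kinase inhibitor gene Camk2n1 had 18.5, 10.2 and 11.3 FPKM at E15.5 and 151, 80.5 and 98.6 FPKM at E11.5, so that Calb2 rose and Camk2n1 fell (log2 changes 4.21 and -2.95, limma adjusted p = 3.48e-05 and 9.05e-05). Of 43 genes for G protein and cyclic nucleotide signalling 12 rose and 3 fell, 7 rises without E15.5 a, led by Rgs10, which quenches G protein signals, at 44.9, 51.3 and 35 FPKM at E15.5 and 0.777, 2.17 and 0.347 FPKM at E11.5 (log2 change 4.49, limma adjusted p = 1.66e-05).

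Among the other rises of the largest size were Rit2, a neuronal Ras-like GTPase, with 97.5, 99 and 138 FPKM at E15.5 and 0.584, 0.491 and 3.74 FPKM at E11.5, and Pla2g7, a secreted phospholipase, with 30.7, 36.4 and 41.2 FPKM at E15.5 and 0.0882, 0.139 and 0.0743 FPKM at E11.5 (log2 changes 5.63 and 5.07, limma adjusted p = 3.09e-06 and 3.52e-06). Further large rises were Anxa1 and Anxa2, annexins that bind membranes in the presence of calcium, the peroxidase gene Gpx8 and the tetraspanin gene Cd9. Anxa1 had 22, 77.4 and 58.6 FPKM at E15.5 and 0, 0.0197 and 0 FPKM at E11.5, and Gpx8 had 30.2, 61 and 39 FPKM at E15.5 and 0.0396, 0 and 0 FPKM at E11.5 (log2 changes 5.56 and 5.39, limma adjusted p = 2.64e-05 and 1.81e-06). The NuGEN E15.5 group of the authors' deposited table had 5.52 FPKM for Anxa1, 3.53 for Anxa2, 3.96 for Gpx8 and 13.1 for Cd9, below all 3 E15.5 libraries compared here, and 99.6 FPKM for Rit2, within their range.

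The rule for named genes leaves out predicted genes and genes with near-identical copies, among them Gm9846 and Mtrnr2l, which were called lower. With both counted, 8 of the 12 largest falls were rows of short RNAs. Of the 12 largest falls under this rule 10 were rows of small nucleolar RNAs or of a microRNA, and the other 2 were Cmtm7 and C1ql1. Cmtm7, a chemokine-like membrane protein, had 0, 0.0378 and 0 FPKM at E15.5, against 68.1, 68.1 and 66.3 FPKM at E11.5, and C1ql1, a secreted protein of the C1q family, had 1.49, 3.52 and 2.32 FPKM at E15.5, against 192, 149 and 124 FPKM at E11.5. No E15.5 library came near those of E11.5 for either gene (log2 changes -6.08 and -5.52, limma adjusted p = 1.84e-06 and 2.16e-06), though the authors' deposited stage table gave Cmtm7 a q-value of 0.299. The next falls, chosen after their values were seen, included the kinase gene Mapk12 with 1.23, 0.201 and 0.127 FPKM at E15.5 and 28.3, 32.9 and 29.1 FPKM at E11.5, the homeobox gene Uncx with 2.19, 1.63 and 0.752 FPKM at E15.5 and 70.2, 37.5 and 25.2 FPKM at E11.5 and the Hippo pathway factor gene Tead2 with 0.117, 2.87 and 0.77 FPKM at E15.5 and 24, 27.8 and 20.9 FPKM at E11.5. Each was lower in every E15.5 library (log2 changes -4.43, -4.08 and -3.67, limma adjusted p = 1.20e-05, 5.07e-05 and 1.18e-04).

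Of 41 tested genes for the G1 to S transition and replication 8 rose and 8 fell, with 5 rises without E15.5 a or E15.5 c and 5 falls without E15.5 a, while of 28 tested G2 and mitosis genes 10 rose and 0 fell with limma, where 1 was lower at an unadjusted p below 0.05. Cdkn1c, an inhibitor of cyclin-dependent kinases, had 31.6, 23.8 and 20.5 FPKM at E15.5, against 286, 252 and 185 FPKM at E11.5, and the G1 cyclin gene Ccnd2 had 2.52, 5.03 and 4.21 FPKM at E15.5, against 35.2, 20.03 and 13.9 FPKM at E11.5. Both fell without overlap (log2 changes -3.199 and -2.23, limma adjusted p = 1.67e-05 and 0.00212). Mcm2, of the replicative helicase, fell too, with 4.85, 4.54 and 2.71 FPKM at E15.5 and 16, 25.9 and 19.5 FPKM at E11.5 (log2 change -2.09, limma adjusted p = 0.00131). Mitotic genes that rose included Cdk1 and Ccnb1, both under 10 FPKM in every library. Cdk1, the mitotic kinase, had 4.07, 2.16 and 2.83 FPKM at E15.5 and 0, 0.202 and 0 FPKM at E11.5, and Ccnb1, its cyclin, had 3.86, 3.22 and 8.56 FPKM at E15.5 and 0, 0.152 and 0.403 FPKM at E11.5 (log2 changes 1.89 and 2.31, limma adjusted p = 0.00157 and 8.92e-04). Mki67, the usual marker of cycling cells, stayed below 1 FPKM in all 6 libraries and was not tested. The authors' deposited stage table called 3 of the G2 and mitosis genes higher and 1 lower, 2 rose among the 10 with at least 5 FPKM in 3 libraries, and the NuGEN E15.5 group of the authors' deposited table had 0.482 FPKM for Cdk1 and 1.03 FPKM for Ccnb1. Rrm2, a ribonucleotide reductase subunit, had 17.8, 20.6 and 24.3 FPKM at E15.5 and 1.29, 6.67 and 2.52 FPKM at E11.5 (log2 change 2.46, limma adjusted p = 0.00129).

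In cholesterol synthesis 13 of 27 tested genes rose and 2 fell, with a median log2 change of 1.05 and 10 to 14 rises with 1 library left out. Idi1, an isomerase early in the pathway, had 22.5, 20.4 and 32.4 FPKM at E15.5, against 2.55, 1.24 and 1.05 FPKM at E11.5. Lss, which closes the sterol ring, had 9.05, 15.9 and 11.6 FPKM at E15.5, against 0.97, 0.795 and 1.15 FPKM at E11.5, and Cyp51, a demethylase downstream of it, had 37.7, 40.8 and 61.4 FPKM at E15.5, against 9.31, 7.34 and 16.8 FPKM at E11.5. These enzymes were higher in all 3 E15.5 libraries (log2 changes 3.34, 2.71 and 2.01, limma adjusted p = 6.22e-05, 4.98e-04 and 0.00126). The 2 falls of the list were fatty acid enzymes, the synthase gene Fasn and the desaturase gene Scd2. Scd2 had 31.1, 37 and 32 FPKM at E15.5 and 70.1, 73.9 and 104 FPKM at E11.5 (log2 change -1.26, limma adjusted p = 0.00364). In glycolysis 8 of 21 genes rose and 1 fell, with 5 rises without E15.5 a or E15.5 b. The phosphofructokinase gene Pfkl had 73.9, 74.3 and 44.3 FPKM at E15.5, against 11.51, 10.7 and 14.9 FPKM at E11.5 (log2 change 2.26, limma adjusted p = 8.94e-04). The lactate exporter gene Slc16a3 was the fall, with 0.0359, 0.0963 and 0.257 FPKM at E15.5, against 12.7, 6.93 and 6.76 FPKM at E11.5 (log2 change -3.07, limma adjusted p = 5.95e-05). For amino acid, folate and nucleotide synthesis 9 of 25 genes rose and 0 fell with limma, where 2 were lower at an unadjusted p below 0.05 and 1 was called lower in the authors' deposited stage table. The rises numbered 4 without E11.5 a or E15.5 c and 3 without E15.5 b. Asns, asparagine synthetase, had 132, 92.4 and 108 FPKM at E15.5, against 26.1, 18.5 and 17.4 FPKM at E11.5 (log2 change 2.37, limma adjusted p = 8.45e-05). Of 33 chaperone genes 12 rose and 1 fell, 7 rises under upper quartile scaling, among them the mitochondrial chaperone gene Hspd1 with 114, 137 and 195 FPKM at E15.5 and 19.2, 31.6 and 23.2 FPKM at E11.5 (log2 change 2.54, limma adjusted p = 1.47e-04) and the endoplasmic reticulum chaperone gene Hspa5 with 168, 202 and 288 FPKM at E15.5 and 82.7, 82.9 and 95.2 FPKM at E11.5 (log2 change 1.29, limma adjusted p = 0.0111).

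Of 24 tested imprinted genes 7 fell and 5 rose, with 1 or 2 rises without E11.5 b, E15.5 b or E15.5 c. Grb10, an adaptor that restrains insulin signalling, had 6.02, 8.92 and 5.12 FPKM at E15.5, against 124, 86.2 and 111 FPKM at E11.5. Mest had 30.2, 22.7 and 22.1 FPKM at E15.5, against 171, 117 and 145 FPKM at E11.5, and Dlk1, a Notch-related membrane protein, had 2.54, 2.7 and 1.68 FPKM at E15.5, against 31.4, 27.8 and 20.3 FPKM at E11.5. None of these overlapped between stages (log2 changes -3.83, -2.48 and -3.05, limma adjusted p = 7.38e-06, 7.86e-05 and 1.31e-04).

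Immediate early genes, which respond to activity and to tissue handling, were lower in part. Of 21 tested genes 6 fell and 0 rose with limma, 3 were higher at an unadjusted p below 0.05 and 3 were called higher in the authors' deposited stage table, and the summed FPKM of the list was 76.9 to 95.5 at E15.5 and 283 to 528 at E11.5, beside 69.4 in the NuGEN E15.5 wild type of the authors' deposited table. Gadd45g, a stress gene that is also expressed in newborn neurons, had 14.2, 15.9 and 5.83 FPKM at E15.5, against 284, 293 and 143 FPKM at E11.5. This gene alone made up a large part of the sum at E11.5. Jun had 1.66, 1.86 and 1.01 FPKM at E15.5 and 16, 13.2 and 8.39 FPKM at E11.5, and Ier2 had 6.31, 6.48 and 3.61 FPKM at E15.5 and 105, 63.4 and 33.9 FPKM at E11.5 (log2 changes -4.25, -2.41 and -3.297, limma adjusted p = 1.98e-05, 6.57e-04 and 5.68e-04). Fos was not called with limma, at 16.2, 18.3 and 16.2 FPKM at E15.5 and 1.09, 16.4 and 6.995 FPKM at E11.5 (log2 change 1.43, limma adjusted p = 0.08001). Its log2 change was 0.6 without E11.5 a and 2.13 without E11.5 b. The authors' deposited stage table called Fos higher, with a log2 fold change of 1.08 and a q-value of 0.0105. What the sort contributed to the fall was not tested.

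Markers of other cell types were also examined. Of 17 tested astrocyte markers 8 rose and 1 fell, and their summed FPKM was 852 to 1201 at E15.5 and 431 to 917 at E11.5, which overlaps. Aldh1l1, an astrocyte enzyme, had 7.72, 11.8 and 10.3 FPKM at E15.5, against 0.0161, 0 and 0.0299 FPKM at E11.5 (log2 change 3.41, limma adjusted p = 9.32e-05), and Gfap was at or near 0 in all 6 libraries. Fabp7, a fatty acid binding protein of radial glia, had 902, 1672 and 1466 FPKM at E15.5, against 121, 208 and 204 FPKM at E11.5 (log2 change 2.91, limma adjusted p = 3.04e-04), whereas the radial glia filament Vim fell to 50.5, 109.9 and 76.5 FPKM at E15.5, against 158, 301 and 246 FPKM at E11.5 (log2 change -1.58, limma adjusted p = 0.00432). The NuGEN E15.5 group of the authors' deposited table had 135 FPKM for Fabp7, within the range of the E11.5 libraries. For Vim it had 38.7 FPKM, below all 6 libraries. In the radial glia list 2 of 14 tested genes rose and 3 fell, 1 fall without E15.5 c. Of 16 oligodendrocyte lineage markers only 4 passed the filter, and 3 of them rose, Mbp, Olig1 and Cnp. Pdgfra, Cspg4, Sox10 and Mog were among those that did not pass. The sum of the list was 49.6 to 131 FPKM at E15.5 and 22.96 to 32.2 FPKM at E11.5. Vessel and meninges markers rose in 3 of 6 tested genes, and their sum was 97.1 to 168 FPKM at E15.5 and 11.4 to 30.8 FPKM at E11.5, with Sparc and Vtn the called members of highest FPKM, while the endothelial genes Pecam1, Kdr and Cdh5 were below 1 FPKM in all 6 libraries. Red blood cell genes, which have near-identical copies, summed to 12.9 to 66.2 FPKM at E15.5 and 0 to 10.2 FPKM at E11.5. Microglia markers had 1 rise, Ctss, among 13 tested genes, but 11 had a log2 change above 0, with a median of 0.745. Their summed FPKM was 26.7 to 51.9 at E15.5 and 13.8 to 16.96 at E11.5, without overlap. In the NuGEN E15.5 wild type of the authors' deposited table it was 11.8. Of glutamate neuron markers 1 and of motor and cholinergic neuron markers 2 were tested, and 0 were called by limma or in the authors' deposited stage table, with 1 cholinergic or motor gene higher at an unadjusted p below 0.05. The tyrosine hydroxylase gene Th rose, with 7.9, 7.97 and 3.3 FPKM at E15.5 and 0.0623, 0.0198 and 0 FPKM at E11.5 (log2 change 2.77, limma adjusted p = 0.0148), a call lost without E15.5 a (limma adjusted p = 0.0552), without E15.5 b (limma adjusted p = 0.052) and without the filter on low values (limma adjusted p = 0.0721). The NuGEN E15.5 group of the authors' deposited table had 0.0622 FPKM for Th, below all E15.5 libraries compared here. Th was 1 of 3 tested genes among 11 markers of dopamine and noradrenaline neurons, and Foxa1 also rose. Dbh, Slc6a3 and Slc6a2 did not pass the filter. Of 6 tested markers of GABA and glycine neurons 1 rose, Gad1, and 2 fell, Gata2, which is also a serotonin neuron factor, and Lhx5. The summed FPKM of the list was 179 to 235 at E15.5 and 341 to 494 at E11.5, without overlap. In the NuGEN E15.5 wild type of the authors' deposited table the sum was 466 FPKM, of which Gata3 held 406 and Gata2 32.6. Gata3, also a serotonin neuron factor, and Gata2 held most of the sum in all 6 libraries too. The sum therefore says little about GABA and glycine neurons, whose part in the results above was not tested.

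In the NuGEN E15.5 wild type of the authors' deposited table, which was normalised separately, several of these marker sums were lower than in the E15.5 libraries compared here. They were 562 FPKM for astrocyte markers, 311 for radial glia, 33.9 for the oligodendrocyte lineage, 15.7 for vessels and meninges and 0.187 for red blood cells, against 852 to 1201, 1367 to 2379, 49.6 to 131, 97.1 to 168 and 12.9 to 66.2 FPKM. In the E11.5 libraries these sums were 431 to 917, 815 to 847, 22.96 to 32.2, 11.4 to 30.8 and 0 to 10.2 FPKM. The NuGEN sums lay within the E11.5 range for astrocytes, vessels and red blood cells. For radial glia the NuGEN sum was below that range, and for the oligodendrocyte lineage slightly above it. The radial glia sum rests largely on 1 gene. Fabp7 held most of it in every E15.5 library and 135 of the 311 FPKM in the NuGEN group. Of the 14 tested genes of that list 2 rose and 3 fell, so its sum is no measure of the list as a whole. In the same table the sums for GABA and glycine receptors (275 FPKM), the vesicle membrane list (1400 FPKM) and cholesterol synthesis (1817 FPKM) were all above those of the E11.5 libraries, at 27.8 to 57.4, 337 to 432 and 998 to 1071 FPKM. The sums of some other lists were nearer to E11.5 in that table. The sum for RNA regulators of the early embryo was 191 FPKM, against 104 to 141 FPKM in the E15.5 libraries and 171 to 230 FPKM in the E11.5 libraries. Imprinted genes summed to 7761 FPKM, against 2908 to 4186 FPKM in the E15.5 libraries and 5881 to 7065 FPKM in the E11.5 libraries. Serotonin neuron factors summed to 798 FPKM, against 382 to 517 FPKM in the E15.5 libraries and 812 to 1350 FPKM in the E11.5 libraries. That sum includes 406 FPKM of Gata3, which was not called with limma. Single falls differed from these sums. In that table Fev had 34.9 FPKM, Gata2 32.6, Igf2bp1 4.29, Igf2bp3 6.07, Grb10 19.2 and Mest 18.8. Each of them, and every other fall of these lists given above with library values, was below all E11.5 libraries. The part of other cells in the rises of glial, annexin and cell cycle genes was not tested.

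**Figure D4:**
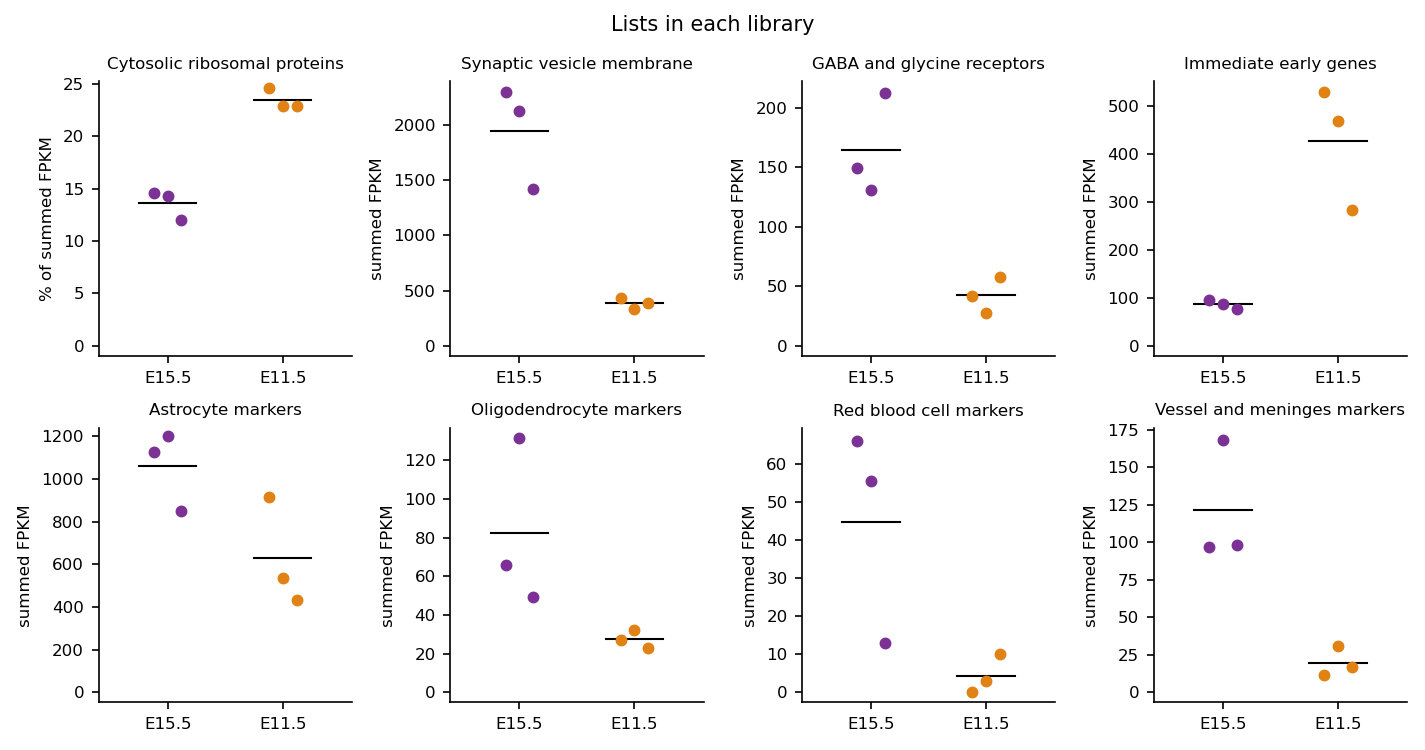
Level of 8 gene lists in each library, E15.5 to the left of E11.5. Points are libraries and bars means. The vertical axis is the summed FPKM of the list, or, for cytosolic ribosomal proteins, the share of all summed FPKM in percent. Ribosomal proteins hold 12% to 14.6% at E15.5 and 22.9% to 24.6% at E11.5, and astrocyte markers overlap between the stages.

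Gene spans on the chromosome were compared as a description. The median span from RefSeq annotation (GRCm38.p6, 11639 tested genes matched) was 26.6 kb for genes that rose, 14.5 kb for genes that fell and 23.1 kb for genes not called. Among 665 genes spanning over 200 kb, 29.5% rose and 5.71% fell. Among 1599 genes under 5 kb, 11.7% rose and 19.2% fell. These shares are descriptions, since genes of a family are not independent.

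**Figure D5:**
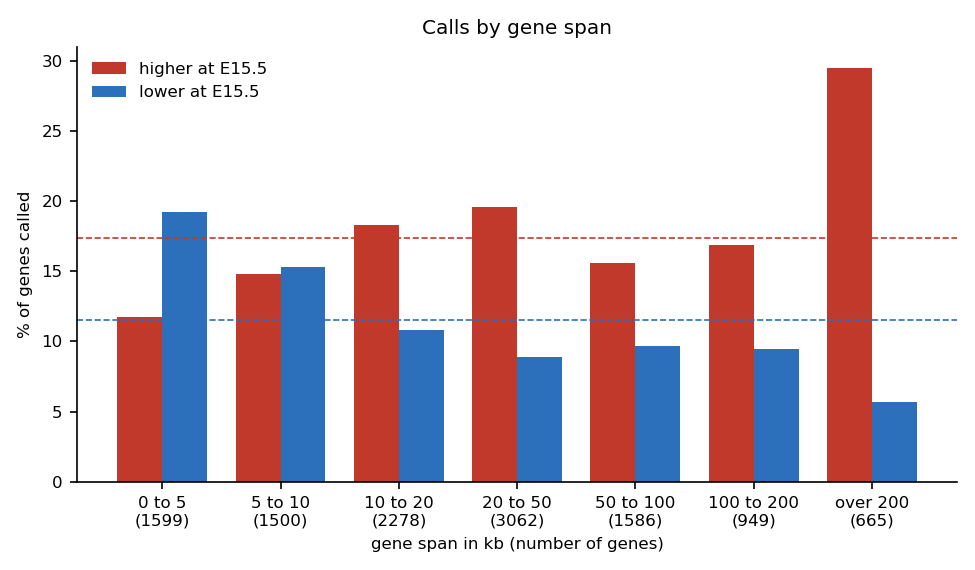
Share of tested genes called higher (red) or lower (blue) at E15.5 by the length of the gene span in kb, with the number of genes in brackets under each class. Dashed lines mark the shares among all tested genes, 17.4% higher and 11.48% lower. The share of rises is highest, 29.5%, for genes over 200 kb, and the share of falls, 19.2%, for genes under 5 kb.

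The stage changes were set beside the NuGEN libraries of the series. Of 2040 genes higher at E15.5, 83% had a NuGEN E15.5 wild-type value on the E15.5 side of the midpoint between the stage means, on the log2(FPKM + 1) scale, in the authors' deposited table, and of 1346 genes lower at E15.5, 87.2% did. In the authors' deposited NuGEN comparison of Pet-1 knockout with wild type at E15.5, 4.55% of 10660 genes were lower and 8.22% higher in the knockout. Of 1964 genes that rose with stage, 7.08% were lower and 7.38% higher in the knockout, and of 1155 genes that fell with stage, 3.81% were lower and 11.3% higher. Of the 8 genes for serotonin synthesis and transport that fell with stage, the authors' deposited table gave log2 knockout over wild type of -4.298 for Tph2, -2.901 for Slc6a4, -5.42 for Slc22a3, -2.39 for Ddc, -0.499 for Qdpr, -0.297 for Slc29a4, -0.12 for Spr and 0.45 for Pcbd1. The q-values of Qdpr, Slc29a4, Spr and Pcbd1 were above 0.05 there. The stage call of Qdpr was lost without E15.5 c (limma adjusted p = 0.052), and that of Slc29a4 without E11.5 b, E11.5 c, E15.5 a or E15.5 c and in the fit on 6 libraries (limma adjusted p = 0.0558 to 0.117).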

How the data were processed

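Expression of 22556 genes was taken from the stage matrix of the series, whose values are FPKM computed by the authors; the submitters' processing notes list TopHat2, Cufflinks, BWA and MACS 1.4.2, with the builds mm9 and mm10 and without roles. The authors deposited q-values (p-values adjusted for multiple tests), log2 fold changes and group FPKM in tables of their own comparisons, which are quoted as theirs. The peak list with its score per peak was deposited by the authors on mm10. No replicate numbers are carried by the columns, and 3 columns of the matrix matched no sample and were not used.

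Values were taken as log2(FPKM + 1) and those reaching 1 FPKM in 3 or more of the 9 wild-type stage libraries, the PN group included, were fitted together with limma 3.58.1 (R 4.3.3), with a mean-variance trend (6 residual degrees of freedom), testing E15.5 minus E11.5. Calls needed a Benjamini-Hochberg adjusted p below 0.05 and 1.5-fold. Depth is unknown, so no counting interval can be given. The fit was tested on simulated data. Tables were handled with Python 3.11.15, pandas 2.3.3 and numpy 2.4.6, and plots drawn with matplotlib 3.10.9. Named genes were the 12 largest changes in each direction with at least 20 FPKM at the higher stage and no overlap between stages, leaving out predicted genes (Rik, Gm, pseudogenes and the like), date-like names and genes with near-identical copies, up to 4 members per list and direction, and key members of the lists. The genes and lists were chosen with earlier results of these data known. Alternatives were another pseudocount (0.1), other filters, upper quartile scaling, median centring, a fit on 6 libraries, a fit without the trend, the authors' q-values and leaving out each library. Gene names turned into dates (25 rows) kept their deposited form. Some genes are not reported here.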

Additional observations from a re-analysis of the deposited data

How the results depend on the processing

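With 1 library left out, the number of changed genes ranged from 2383 to 3315, that of genes higher at E15.5 from 1412 to 2077 and that of genes lower at E15.5 from 876 to 1238. The lowest count of falls, 876, was that without E15.5 c, of which 855 were among the 1348. The stage is then represented by 2 libraries. Under the other settings the changed genes numbered 2680 (no filter on low values) to 4330 (the authors' deposited table), and rises held 56.4% to 62.0% of calls except under upper quartile scaling, at 49.6%. The cause was not tested. All 1659 rises under that scaling were among the 2046. Of the calls, 1606 rises and 1144 falls were also past the threshold in the authors' deposited table. No paired analysis was possible because the columns carry no replicate numbers. FPKM without read numbers leave the precision of low genes unknown.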

Other observations

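Rows of small nucleolar RNAs, microRNAs and similar short RNAs were 726 in the matrix, of which 68 passed the filter. Of these, 17 were lower at E15.5 and 1 was higher. Of the 17, 14 were listed at 0 in all 3 E15.5 libraries. Rows above 0 numbered 9, 12 and 12 in the E15.5 libraries and 19, 57 and 55 in the E11.5 libraries, so E11.5 a stood nearer to the E15.5 libraries than to the others of its stage. FPKM of such short transcripts can be large from few fragments, and no value is given for single rows.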
